A study of Mus musculus with 2 samples.

Results

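Imprinted genes are transcribed from only the maternal or only the paternal copy, and the 10 described here are Meg3, Rian, Mirg, Dlk1, H19, Igf2, Cdkn1c, Peg3, Plagl1 and Grb10. They were taken as a named list of growth-related imprinted genes out of 20284 genes on the array, and their probes were those whose RefSeq transcript accession belongs to a listed gene. The genes were chosen by name with the measured differences between these arrays, above all that of Meg3, already known, so those differences are a description, with no test. In all 15 probes of 8 genes matched, and no probe matched Rian or H19 through the RefSeq table used. The RNA came from livers of fibrotic male C57BL/6 mice, and all mice of both groups carried the fibrosis. One group received recombinant TSG-6, labelled Rh_TSG-6, intravenously, and the other received PBS. Liver RNA was taken 2 weeks later from 3 mice per group, mixed in equal parts and hybridised to 1 one-colour Agilent array per group. The age of the mice and the way fibrosis was induced are not given in the sources used here, and no liver without fibrosis was analysed here. With 1 pooled array per group there is no replicate, nothing was tested, and array and treatment cannot be told apart.

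Imprinting is set by DNA methylation at control regions that is laid down in one parent's germ line and kept in the embryo. In the Dlk1-Dio3 domain of mouse chromosome 12 the paternal copy makes Dlk1, Rtl1 and Dio3, while the maternal copy makes the noncoding RNAs Meg3, Rian and Mirg, which are thought to be cut from a long shared transcript. On distal chromosome 7 the insulator protein CTCF binds the unmethylated maternal control region, so that H19 is made from the maternal copy and Igf2 from the paternal one. Paternally expressed genes of this group tend to promote fetal growth and maternally expressed ones to restrain it. Fetal liver makes H19, Igf2 and Dlk1 in quantity and silences them after birth. The array reads the sum of both copies and cannot tell them apart.

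The sequences at the annotated starts of Meg3, Mirg, Dlk1 and Peg3 are shown because Meg3 stood apart from its neighbours Mirg and Dlk1 in these pools, and Peg3 had the lowest value among the members. Each window runs from 250 bases before to 50 bases after a start, on the strand of the gene, 5′ to 3′, from RefSeq build GRCm38.p6. Capitals mark CG dinucleotides, the sites at which DNA methylation can occur. Methylation itself was not measured.
Meg3, first start, chr12:109540746-109541045, plus strand: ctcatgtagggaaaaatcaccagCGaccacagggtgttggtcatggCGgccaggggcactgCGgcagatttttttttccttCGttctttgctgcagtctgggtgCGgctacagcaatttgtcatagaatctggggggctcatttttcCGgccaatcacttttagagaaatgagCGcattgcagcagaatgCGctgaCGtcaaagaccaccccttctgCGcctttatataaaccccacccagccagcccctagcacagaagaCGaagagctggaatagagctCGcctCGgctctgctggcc
Meg3, second start, chr12:109545148-109545447, plus strand: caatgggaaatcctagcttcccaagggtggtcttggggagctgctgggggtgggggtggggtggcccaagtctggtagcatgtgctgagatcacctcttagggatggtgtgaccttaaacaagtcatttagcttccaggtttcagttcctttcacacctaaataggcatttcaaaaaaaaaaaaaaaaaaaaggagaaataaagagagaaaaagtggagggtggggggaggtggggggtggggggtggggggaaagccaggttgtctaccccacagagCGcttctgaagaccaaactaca
Mirg, chr12:109734731-109735030, plus strand: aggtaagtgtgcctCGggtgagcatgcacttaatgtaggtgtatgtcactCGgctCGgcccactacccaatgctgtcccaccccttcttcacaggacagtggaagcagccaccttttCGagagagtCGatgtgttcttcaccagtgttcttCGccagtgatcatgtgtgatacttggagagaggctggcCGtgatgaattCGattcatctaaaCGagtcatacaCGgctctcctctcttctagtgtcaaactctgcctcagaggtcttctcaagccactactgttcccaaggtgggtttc
Dlk1, chr12:109452573-109452872, plus strand: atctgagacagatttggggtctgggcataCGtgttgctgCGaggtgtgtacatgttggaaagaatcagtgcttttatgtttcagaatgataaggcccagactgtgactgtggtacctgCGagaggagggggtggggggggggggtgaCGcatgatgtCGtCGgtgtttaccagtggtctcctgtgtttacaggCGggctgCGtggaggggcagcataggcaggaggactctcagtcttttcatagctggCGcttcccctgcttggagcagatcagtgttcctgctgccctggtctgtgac
Peg3, chr7:6730370-6730669, minus strand: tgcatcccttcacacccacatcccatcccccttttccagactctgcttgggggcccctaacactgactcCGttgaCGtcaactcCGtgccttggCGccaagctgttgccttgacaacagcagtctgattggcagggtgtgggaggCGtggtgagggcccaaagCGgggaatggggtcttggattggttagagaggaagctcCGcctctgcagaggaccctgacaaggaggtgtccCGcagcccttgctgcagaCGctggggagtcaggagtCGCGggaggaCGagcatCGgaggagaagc

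The first Meg3 window held 13 CG dinucleotides and the second held 1. The windows of Peg3, Mirg and Dlk1 held 13, 10 and 9. The median over 32851 RefSeq windows of the same length was 7, and 37.9% of them held at least 13. The window of Rian held none. Those of Plagl1 and the first start of Grb10 were richer, with 26 and 45, and 1.93% of all windows hold at least 45. The cAMP response element TGACGTCA, which reads the same on both strands, lay at position -57 of the first Meg3 start and at position -178 of the Peg3 start, and 1.79% of all windows hold it. The TATA motif TATAAA, searched on both strands, lay at positions -29 and -25 of the first Meg3 start as overlapping matches, and 13.6% of windows hold it. Neither motif was found in the printed windows of Mirg, Dlk1 or the second Meg3 start. A match describes the letters of the window and says nothing of binding. Windows were available for 8 members, with none for H19 or Cdkn1c. In the same annotation Mirg spans 10 miRNA hairpins, Rian spans 3 and Meg3, H19 and Igf2 span 1 each, and no probe matched a miRNA gene, so the miRNAs themselves were not read.

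Signals below are the scanner software's processed signals on a linear scale. A level is the log2 of a signal over the 75th percentile of its own array, taken across the non-control spots. That percentile was 2476 on the TSG-6 array and 3158 on the PBS array, so equal signals stand for a higher level on the TSG-6 array. Differences are levels of the TSG-6 pool minus those of the PBS pool. The error beside a difference comes from the software's own estimate for each spot, at most 20.0% of the signal for the measured probes of these genes. It covers the reading of a spot and leaves out the spread between mice. Replicate spots of 327 probes elsewhere on the arrays differed among themselves with an SD of 0.13 in the log2 difference. Of the 59305 non-control spots, 75.5% on the TSG-6 array and 74.0% on the PBS array were well above background. No probe of the members was saturated or carried an outlier flag. As a check of the tissue label, 5 of 7 hepatocyte markers, Alb and Hnf4a among them, were measured in both pools, and the other two had only flagged spots.

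Of the 15 probes, 13 were well above background on both arrays and 2 on neither, which left 7 measured genes. Among them 1 was at least 2-fold higher in the TSG-6 pool, namely Meg3, and none was at least 2-fold lower. Over all 15148 measured genes, 2.94% passed 2-fold upward in the TSG-6 pool and 4.28% downward, figures given for scale because this contrast was used to choose the genes. The other 6 genes ran from -0.78 to 0.46. Their median was 0.15, against 0.08 for all measured genes. In bulk liver, fewer cells of a type and less RNA per cell cannot be told apart.

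**Figure D1:**
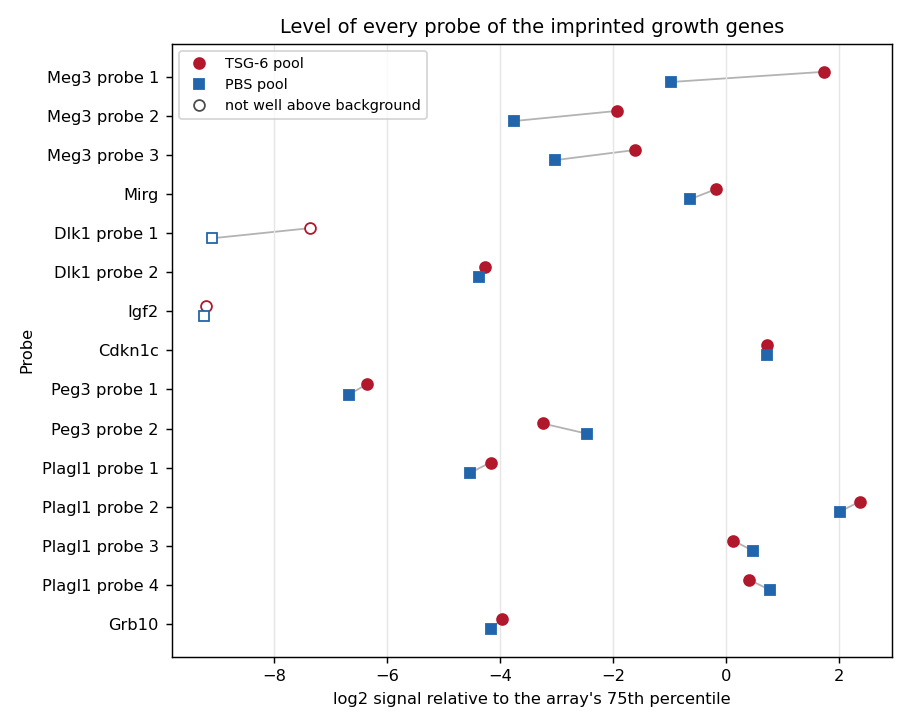
Level of each of the 15 probes in the TSG-6 pool (circles) and the PBS pool (squares), as log2 signal relative to the array's 75th percentile, with open symbols where a probe was not well above background. The 3 Meg3 probes stand well to the right in the TSG-6 pool, while the circles and squares of the other measured probes lie closer together. The widest gap among those others is at the brighter Peg3 probe, a difference of -0.78. Positions of different probes are not comparable as amounts of RNA.

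Meg3 is a long noncoding RNA of the maternal copy, known as a growth restrainer and for promoting the p53 response in human cells. All 3 of its probes were higher in the TSG-6 pool. The brightest, A_51_P455997, read 8225 in the TSG-6 pool against 1612 in the PBS pool. Its log2 difference was 2.70 with a software error of 0.20, or 6.51-fold. This placed Meg3 27th from the top among 15148 measured genes. The probe A_55_P2033407, assigned to the same transcript accession, read 652 in the TSG-6 pool against 234.1 in the PBS pool, a difference of 1.83 (error 0.21, 3.55-fold). The probe A_52_P196568, assigned to another Meg3 transcript, read 815 in the TSG-6 pool against 388 in the PBS pool, a difference of 1.42 (error 0.21, 2.68-fold). The direction was thus shared by every Meg3 probe and the size was not. Their differences spanned 1.28, and among 426 genes with 3 measured probes the median span was 0.45 and 4.46% had a span at least as wide. The mean over the 3 probes was 1.98. Over all measured probes, 3.48% passed 2-fold upward in the TSG-6 pool and 3.15% downward.

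Mirg, a maternally expressed host RNA of a miRNA cluster downstream of Meg3, read 2202 in the TSG-6 pool against 2038 in the PBS pool with its single probe. Its difference was 0.46 (error 0.20), within 2-fold. The difference of Meg3 exceeded that of Mirg by 2.24 with the brightest Meg3 probe and by 0.96 with the lowest. Rian, the small nucleolar RNA host between them, had no matched probe. Dlk1, a paternally expressed transmembrane protein of hepatoblasts and other precursor cells, had 1 measured probe, which read 129.5 in the TSG-6 pool against 153.2 in the PBS pool. Its difference was 0.11 (error 0.22). The second Dlk1 probe read 15.1 in the TSG-6 pool and 5.77 in the PBS pool, was not well above background on either array and allows no fold.

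**Figure D2:**
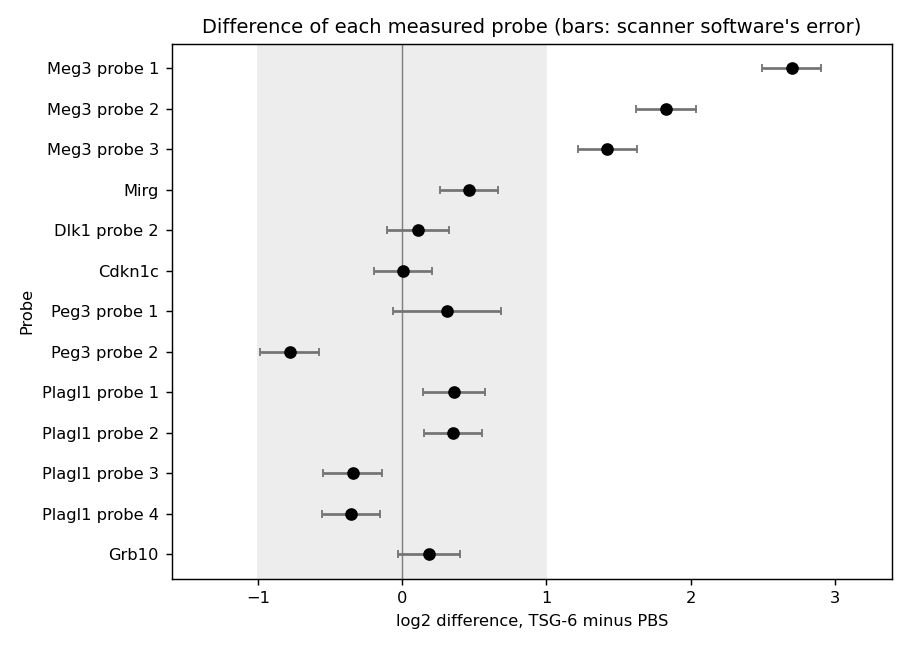
log2 difference (TSG-6 minus PBS) of the 13 measured probes, with bars for the scanner software's error of the difference and a grey band for differences under 2-fold. The 3 Meg3 probes lie beyond the band, from 1.42 to 2.70, and the other probes lie within it, those of Plagl1 and Peg3 on both sides of 0.

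Around these members the Dlk1-Dio3 domain was uneven. Of 15 genes listed for the domain and its flanks, 12 were measured, 2 were at least 2-fold higher (Meg3 and Dio3os) and none was 2-fold lower. Those 2 were 16.7% of the genes measured, against 7.23% of all measured genes past 2-fold in either direction. This share is given for scale, since Meg3 and the lists were chosen with results known. Dio3os, the antisense transcript at Dio3, read 375 in the TSG-6 pool against 189.3 in the PBS pool, a difference of 1.34 (error 0.21, 2.53-fold), which was 0.97 after spike-in scaling. Dio3, the deiodinase that inactivates thyroid hormone, read 243.3 in the TSG-6 pool and 252.2 in the PBS pool, a difference of 0.30. Rtl1, a retrotransposon-derived gene that lies opposite a maternal transcript of this domain, read 97.8 in the TSG-6 pool and 81.4 in the PBS pool, a difference of 0.62. Begain exceeded background on the PBS array alone, at 15.3 in the TSG-6 pool against 40.4 in the PBS pool, at least 1.71-fold lower. The flanking genes Degs2, Yy1, Slc25a29, Wars, Wdr25 and Ppp2r5c ran from -0.76 for Wars to 0.55 for Degs2. A dimmer Wars probe read 938 in the TSG-6 pool against 3065 in the PBS pool, a difference of -1.36, so Wars was past 2-fold downward as the mean over its probes (-1.06) and after spike-in scaling (-1.13). Begain was past 2-fold downward with no filter on dim probes. Dync1h1 had only spots with an outlier flag.

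**Figure D3:**
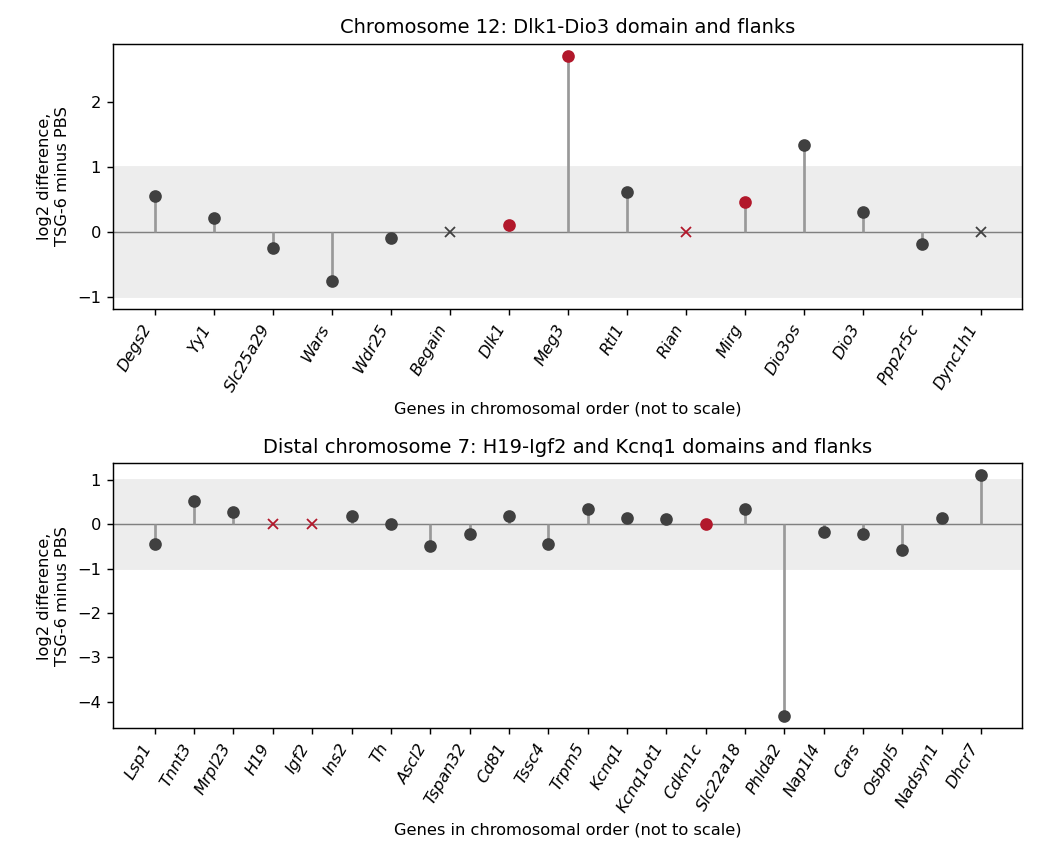
log2 difference (TSG-6 minus PBS) of the genes of both imprinted domains in chromosomal order, not to scale, with list members in red, a grey band for differences under 2-fold and crosses for genes without a value. On chromosome 12 only Meg3 (2.70) and Dio3os (1.34) lie above the band, and on chromosome 7 Phlda2 (-4.33) lies far below it and Dhcr7 (1.11) just above it.

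The members on distal chromosome 7 gave less. Igf2, the fetal insulin-like growth factor, had 1 probe, which read 4.20 in the TSG-6 pool and 5.24 in the PBS pool. The lowest level among probes well above background corresponded to signals of 18.6 and 23.8, so Igf2 was not well above background in either pool and allows no fold. Cdkn1c encodes p57, a maternally expressed inhibitor of cyclin-dependent kinases. It read 4116 in the TSG-6 pool and 5230 in the PBS pool, a difference of 0.01 (error 0.20). Its value lay below 0 under 5 of 13 processing alternatives and above 0 under 8, so no direction is given.

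Of 22 genes listed for this stretch, 20 were measured, with 1 past 2-fold in each direction, or 10% against 7.23% of all measured genes. The lower one was Phlda2, a maternally expressed inhibitor of placental growth that neighbours Slc22a18 and Cdkn1c. Phlda2 read 25.1 in the TSG-6 pool against 642 in the PBS pool with its single probe, a difference of -4.33 (error 0.32, 20.1-fold lower). The TSG-6 signal lay just above the dimmest detected signals, and under normexp background correction the difference was -2.48. The stricter filter on dim probes left Phlda2 out. The higher one was Dhcr7, a cholesterol synthesis enzyme imprinted in placenta, at 8007 in the TSG-6 pool against 4744 in the PBS pool (2.15-fold). It was under 2-fold in 2 of 13 alternatives and lowest after spike-in scaling, at 0.74. Kcnq1ot1, the noncoding RNA that silences this domain on the paternal copy, differed by 0.12 with its brighter probe and 0.18 with the other.

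The zinc finger genes Peg3 and Plagl1 had probes that disagreed. Peg3, a paternally expressed regulator of growth and of maternal behaviour in mice, read 261 in the TSG-6 pool against 572 in the PBS pool with its brighter probe, a difference of -0.78 (error 0.21). The dimmer Peg3 probe, near background, read 30.1 in the TSG-6 pool and 30.9 in the PBS pool, a difference of 0.31 (error 0.38). The span of 1.09 between them was reached by 3.32% of 2983 genes with 2 measured probes. The brighter probe passed 2-fold only under spike-in scaling, at -1.15. The dimmer probe ran from -0.06 to 1.04 over 12 alternatives, past 2-fold upward at its highest.

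Plagl1, known in mice as a regulator of other imprinted genes including Igf2, H19, Dlk1 and Cdkn1c, had 4 measured probes that carry the same transcript accession. The brightest read 12814 in the TSG-6 pool and 12808 in the PBS pool, a difference of 0.35 (error 0.20). The dimmest read 137.8 in the TSG-6 pool and 137.1 in the PBS pool, a difference of 0.36. The other two read 2720 and 3308 in the TSG-6 pool against 4401 and 5401 in the PBS pool, with differences of -0.34 and -0.36. Their mean was 0.00, and a span of 0.71 or more was seen in 41.7% of 48 genes with 4 measured probes. No direction for Plagl1 follows from these probes.

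Grb10 encodes an adaptor that binds the insulin and IGF1 receptors and restrains their signal, and is maternally expressed in most tissues outside the brain. Its probe read 158.3 in the TSG-6 pool and 177.4 in the PBS pool, a difference of 0.19 (error 0.21), with a sign that turned under spike-in scaling, at -0.18. Of 19 genes listed for the IGF and insulin axis, 15 were measured, with a median of 0.28. Among them 1 was at least 2-fold higher and none lower, or 6.67% past 2-fold against 7.23% of all measured genes. That one was Irs2, an insulin receptor substrate, at 17511 in the TSG-6 pool against 8920 in the PBS pool (2.50-fold). It was 0.96 on the log2 scale after spike-in scaling. The median of the list ran from -0.09 after spike-in scaling to 0.57 with the percentile of unflagged spots, so it has no settled sign. The other insulin receptor substrate listed, Irs1, differed by -0.38 with its brighter probe and -0.43 with its dimmer probe. The insulin receptor Insr differed by 0.52 with its brighter unflagged probe, by 0.96 with its dimmer probe and by 0.70 with a flagged probe. The IGF1 receptor Igf1r differed by -0.10 and the imprinted IGF2 receptor Igf2r by -0.45. The related adaptors Grb7 and Grb14 differed by 0.56 and 0.38. Igfbp1, Igfbp3 and Igfbp4 had only spots with an outlier flag.

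Beside p57, the related inhibitor Cdkn1b (p27) differed by 0.04 and Cdkn1a (p21) by -0.96. Of 10 measured genes among the CIP/KIP inhibitors and their cyclin and kinase partners, 1 was at least 2-fold lower and none higher, with a median of -0.35. The share past 2-fold was thus 10%, against 7.23% of all measured genes. The count lower ran from 1 to 3 over the alternatives, with Cdkn1a at -1.33 and Ccne2 at -1.19 after spike-in scaling, and the median from -0.72 to -0.06. The lower one was Ccne1, a cyclin whose kinase complex p57 inhibits. Its brighter probe read 446 in the TSG-6 pool against 3432 in the PBS pool, a difference of -2.59, and its dimmer one 32.6 in the TSG-6 pool against 148.3 in the PBS pool, a difference of -1.83.

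Other imprinted genes passed 2-fold about as often as all genes, with 7.32% of those measured past it in either direction, against 7.23% of all measured genes. Of 53 listed, 41 were measured, 7 were below background on at least 1 array, 3 had no matched probe and 2 were flagged in every spot. Their median was 0.06, against 0.08 for all measured genes, with 22 above 0 and 19 below. The 3 past 2-fold were Phlda2, Gnas and Peg10. Gnas, which encodes the stimulatory G protein subunit, read 39.4 in the TSG-6 pool against 142.7 in the PBS pool with its only measured unflagged probe, a difference of -1.50. Its brightest probe, assigned to another Gnas transcript, carried an outlier flag. That probe read 39308 in the TSG-6 pool and 38694 in the PBS pool, a difference of 0.37, so no direction is given. Peg10, a retrotransposon-derived placental gene, read 52.6 in the TSG-6 pool against 30.6 in the PBS pool, a difference of 1.14. Its other probe read 4.28 in the TSG-6 pool against 31.7 in the PBS pool and pointed the other way. Peg10 was under 2-fold in 4 alternatives, down to 0.62 under normexp. Airn, also on this list, differed by -0.23 with its brighter probe. The dimmer Airn probe read 299 in the TSG-6 pool against 1216 in the PBS pool, a difference of -1.67 (error 0.21).

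**Figure D4:**
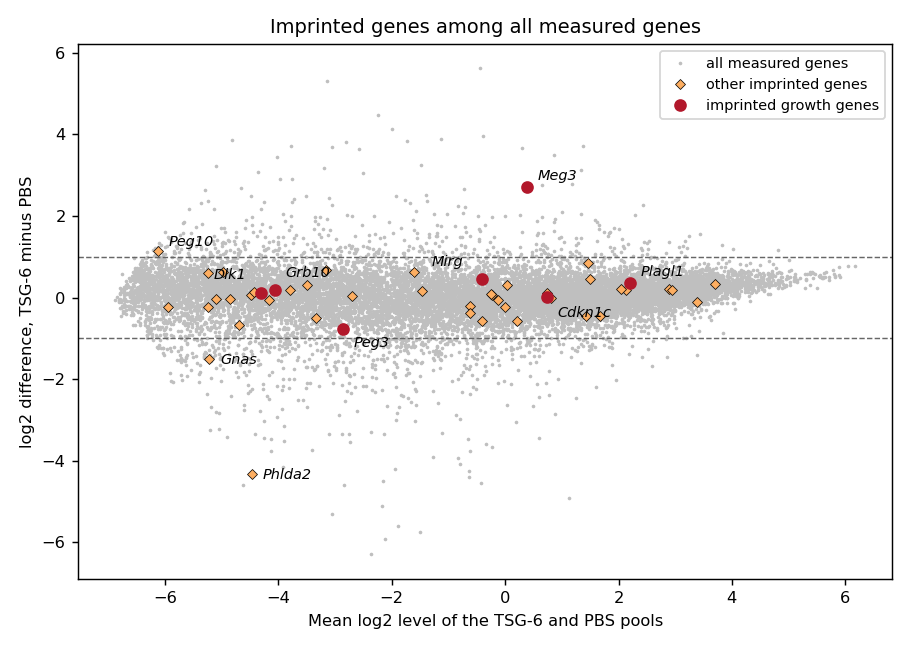
log2 difference (TSG-6 minus PBS) against mean log2 level for all 15148 measured genes (grey), the 41 other imprinted genes (diamonds) and the 7 measured members (red), with dashed lines at 2-fold. Meg3 lies high, 27th from the top, with the neutrophil markers Ngp (3.67) and Ltf (3.49) among the genes above it. The other members lie inside the lines, and of the other imprinted genes Phlda2 and Gnas lie below and Peg10 above.

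Among genes that maintain imprints or silence fetal genes after birth, 16 of 19 were measured, with a median of -0.14. Of these, 2 were lower by 2-fold or more and none higher by as much, or 12.5% against 7.23% of all measured genes. Dppa3, which protects maternal methylation in the early embryo, read 336 in the TSG-6 pool against 1548 in the PBS pool (3.61-fold lower). Uhrf1, which recruits the maintenance methyltransferase to replicating DNA, read 1171 in the TSG-6 pool against 3631 in the PBS pool (2.43-fold lower), and was just under 2-fold, at -0.99, with the percentile of unflagged spots. The maintenance methyltransferase Dnmt1 differed by -0.66, past 2-fold after spike-in scaling at -1.02, and Ctcf by 0.03. The median of this list ran from -0.51 to 0.15 over the alternatives. Zhx2, which with Zbtb20 represses fetal genes such as Afp in mouse liver, differed by -0.47 and Zbtb20 by 0.56.

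Fetal liver genes outside the list did not share one direction. Of 11 symbols listed, Nope being an older name of Igdcc4, 7 were measured, with 2 past 2-fold downward and none upward. Those 2 were 28.6% of the genes measured, against 7.23% of all measured genes past 2-fold in either direction. Afp, the fetal serum protein, differed by -3.60. Hmga2, a fetal chromatin protein, read 504 in the TSG-6 pool against 4712 in the PBS pool with its brighter probe (7.33-fold lower) and 104.4 in the TSG-6 pool against 634 in the PBS pool with the other (4.76-fold lower). Gpc3, Lin28a, Trim71 and Igf2bp3 ran from 0.25 to 0.89, and Igdcc4 was at -0.47. With the percentile of unflagged spots Lin28a (1.17) and Trim71 (1.16) were past 2-fold upward, though a second Trim71 probe differed by 0.16 in the reported setting. The median of this list was 0.25 and ran from -0.12 to 0.54 over the alternatives. Lin28b, Igf2bp1 and the embryonic globin Hbb-bh1 were not well above background in either pool, as with Igf2.

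Markers of several cell types differed between the pools. For scale, 2.94% of all measured genes were at least 2-fold higher in the TSG-6 pool and 4.28% at least 2-fold lower. The 5 measured hepatocyte markers all lay above 0, with a median of 0.37 and Cyp2e1 past 2-fold upward (2.27-fold). Their signals, in units of the 75th percentile, summed to 120.7 in the TSG-6 pool against 88.2 in the PBS pool. Before scaling, Alb read 63130 in the TSG-6 pool and 62503 in the PBS pool, and Hnf4a read 29971 and 33870. The sign of small marker differences thus depends on the scaling of the arrays. No range over the alternatives is given for the marker lists. Neutrophil and precursor markers were at least 2-fold higher for 6 of 8 genes, with a summed signal, in units of the 75th percentile, of 44.8 in the TSG-6 pool against 18.8 in the PBS pool. Activated stellate cell markers were at least 2-fold lower for 5 of 9, with a summed signal of 24.3 in the TSG-6 pool against 41.8 in the PBS pool. Erythroid markers were at least 2-fold higher for 2 of 4, with a sum of 21.1 in the TSG-6 pool against 19.1 in the PBS pool. Endothelial markers, of which 8 were measured, had a median of 0.25 with none past 2-fold, and a sum of 32.0 in the TSG-6 pool against 27.3 in the PBS pool. Of 5 quiescent stellate cell markers 1 was 2-fold higher and 1 lower, with a sum of 18.2 in the TSG-6 pool against 13.7 in the PBS pool. Kupffer cell markers were measured for 5 of 5, with 1 past 2-fold upward and a sum of 55.3 in the TSG-6 pool against 47.2 in the PBS pool. No cholangiocyte marker (3 measured) and no portal fibroblast or mesothelial marker (6 measured) passed 2-fold, with sums of 9.25 and 5.01 in the TSG-6 pool against 15.5 and 6.07 in the PBS pool. Such sums follow the brightest gene of a list. Among cholangiocyte markers that gene was Spp1, at -0.82, while Krt19 differed by -0.29 and Krt7 by -0.02. Among quiescent stellate cell markers it was Ecm1, at 0.46. The part of these markers in the Meg3 difference was not tested.

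**Figure D5:**
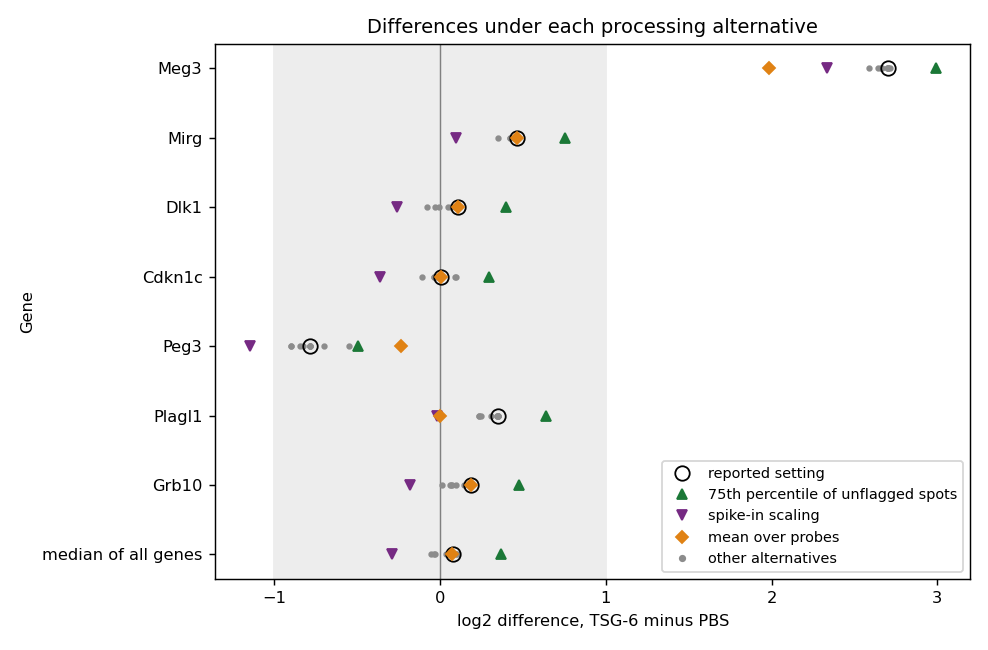
log2 difference (TSG-6 minus PBS) of the 7 measured members and the median of all genes in the reported setting (open circles) and under each alternative, with a grey band for differences under 2-fold. Meg3 lies between 1.98 and 2.99 in all 13 alternatives, Peg3 stays below 0, Mirg stays above 0, and Dlk1, Cdkn1c, Plagl1 and Grb10 have values on both sides of 0.

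The scaling of the arrays moved all genes together, and the median of all measured genes was 0.37 with the percentile taken over unflagged spots and -0.29 after spike-in scaling. Measured from that median, the difference of Meg3 was 2.63 in the reported setting and lay between 1.91 and 2.71 under the alternatives. That of Peg3 was -0.86 in the reported setting and lay between -0.31 and -0.86 under the alternatives.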

How the data were processed

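The data are 2 one-colour Agilent arrays of mouse liver RNA, each of the mixed RNA of 3 mice, labelled with Cy3 from 0.2 ug, according to the labels' protocols and design text. The deposited scanner files give spot intensity on a linear scale, background-subtracted and detrended within the array by Agilent Feature Extraction 11.5.1.1, per the file headers, while the submitters' processing notes name version 10.7. The deposited value table holds log2 values equal to the log2 processed signal minus 1 constant per array, within 0.001 for all probes with a single spot, with medians of -3.77 for TSG-6 and -3.90 for PBS. Its scale and direction are thus known.

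Levels are log2 processed signal minus the array's 75th percentile over non-control spots. Spots with an outlier flag (6.44% on the TSG-6 array, 3.40% on the PBS array) were left out of gene values. A probe counted as measured where 50% or more of its spots exceeded background on each array, and a gene was read from its brightest measured probe. Accessions were matched, without version, to a RefSeq table of GRCm38.p6, used for names, gene order and promoter sequence. The array was designed on mm9, per the file headers. With 1 array per group genes were counted past 2-fold, with no test. The number of arrays limits the precision.

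The members and the lists were chosen with earlier results of these data known. All members were described, and from each list at most 4 genes past 2-fold, with any measured gene of the 2 chromosomal domains. Beside them, genes of the same pathway or list were named after their values were seen. In all 13 alternatives were run with limma 3.58.1, statsmodels 0.14.6 and Python 3.11.15. The normexp correction used the median spot signal because the files hold no mean spot signal, a change made after the files were seen. It added an offset of 50 to each corrected signal, which by itself narrows the differences of dim probes. The steps of the reported setting were tested on simulated data, built from the PBS array with the same change given to all probes of a gene. That test did not cover changes in dim genes, disagreement between probes or the alternatives.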

Additional observations from a re-analysis of the deposited data

How the results depend on the processing

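Meg3 was higher in the TSG-6 pool and past 2-fold under all 13 alternatives, at 2.99 with the percentile of unflagged spots, 2.34 after spike-in scaling and 1.98 as the mean over its probes. Counts of members past 2-fold held except that 1 was lower after spike-in scaling, namely Peg3. The count of all genes at least 2-fold higher, 446 in the reported setting, was 290 under normexp, 1019 with the percentile of unflagged spots, 191 after spike-in scaling and 906 with no filter on dim probes. The count at least 2-fold lower, 649 in the reported setting, was 402, 376 and 1393 in the first 3 of these settings. Higher genes were 40.7% of those past 2-fold, but 73.0% with the percentile of unflagged spots, 29.5% with array medians, 29.4% after loess and 12.1% after spike-in scaling. The median of the other imprinted genes was 0.35 with the percentile of unflagged spots and -0.31 after spike-in scaling. Of them 2 were at least 2-fold higher with the percentile of unflagged spots and 0 under normexp, quantile, loess and spike-in scaling and the stricter filter. At least 2-fold lower were 4 with no filter and 1 under normexp, the stricter filter and with flagged spots kept. Gnas reversed to 0.37 with flagged spots kept, where its brightest probe is read. The cause of the other changes was not tested. No paired analysis was possible because each group has 1 array. Signal over background limits Igf2 and the second Dlk1 probe, and Phlda2 in the TSG-6 pool.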
